A study of Mus musculus with 20 samples.

Results

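Pre-B cell lines in which DNA breaks made by the RAG recombinase are left unrepaired were set against lines in which no such breaks are made. The first group holds the 3 Artemis-deficient lines whose source labels name neither ATM deficiency nor dominant negative IkB. The second holds the 3 RAG-2-deficient lines, also chosen by their source labels. These 6 arrays are among 20 in the series, and all probe sets were used. In both groups, mouse pre-B cells carrying the transforming v-abl oncogene were grown in DMEM with 10% FCS. STI571 (imatinib), an inhibitor of the v-abl kinase, was present at 3 uM for 48 hours. The series text calls the lines of a group biological replicates. The sources used here give neither the strain of the mice nor the number of separate transformations behind the lines. The titles of the RAG-2-deficient lines hold the letters Bcl and the title of Artemis-deficient replicate 3 holds the letters INV, which no source explains, so a further difference between the lines cannot be told apart from the named genotypes.

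The other 10 line arrays had the same treatment: 3 of Artemis-deficient lines expressing dominant negative IkB, which keeps NF-kB inactive (IkB-DN lines), 4 of 2 lines deficient in Artemis and ATM, each on 2 technical arrays, and 3 of wild type lines. The remaining 4 arrays came from bone marrow pre-B cells with an IgH transgene, taken without culture from Artemis-deficient and from RAG-1-deficient mice (n = 2 each). Technical arrays were averaged, so each group of lines had 3 samples except the lines without ATM (n = 2).

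RAG-1 and RAG-2 together cut DNA beside the gene segments of antigen receptor loci, and developing B cells use these cuts to assemble immunoglobulin genes. The cut leaves coding ends that are closed as hairpins; the nuclease Artemis opens them so that end joining can proceed, and without it the coding ends stay unjoined. The kinase ATM responds to such ends, and one of the pathways it can switch on is NF-kB, a family of transcription factors held in the cytoplasm by IkB proteins until a signal has the IkB destroyed. Inhibiting v-abl arrests transformed pre-B cells and is known to induce the RAG genes.

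Median signals of the 16 line arrays were alike, between 26.8 and 27.7. The correlation of log2 signals across probe sets was 0.916 to 0.947 within the Artemis-deficient group and 0.926 to 0.940 within the RAG-2-deficient group. Between lines of the 2 groups it was 0.885 to 0.931, which overlaps both ranges. The labels name no batch. The pre-B genes Cd79a, Cd79b, Pax5, Ebf1, Igll1, Vpreb1, Rag1 and Dntt had signals of at least 118 on each of the 6 arrays. Summed signals of 15 neutrophil and monocyte markers were 199, 223 and 477 in Artemis-deficient lines and 833, 174 and 194 in RAG-2-deficient lines, and those of 7 plasma cell markers were 7601, 8090 and 9498, against 15509, 7827 and 9594, with RAG-2-deficient replicate 1 high on both. Those of 13 T and NK cell markers were 402, 1556 and 389 in Artemis-deficient lines and 555, 490 and 288 in RAG-2-deficient lines, with Artemis-deficient replicate 2 high. Those of 8 mature B cell markers differed by group. They were 15528, 16237 and 14710 in Artemis-deficient lines, all below the 19013, 18123 and 18093 of the RAG-2-deficient lines. The part of these in the results was not tested. Rag2 transcripts gave signals of 357, 289 and 283 in Artemis-deficient lines and of 19.8, 255 and 327 in RAG-2-deficient lines, so that only RAG-2-deficient replicate 1 was low. The sources used here do not say which part of Rag2 is deleted, and a signal from outside it would be no check of the label. The Artemis gene itself is not analysed here.

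Of 21744 probe sets tested with limma, 249 differed at an adjusted p below 0.05 (1.15%), 149 of them higher and 100 lower in the Artemis-deficient lines. With 1 probe set per gene, that of the highest mean level, 105 of 9815 genes were called (1.07%), 72 higher (0.734%) and 33 lower (0.336%). The median size of the called changes was 1.51 on the log2 scale, and 76 of the 105 genes changed by more than 1. All 249 called probe sets had groups that did not overlap, as had 18.4% of all those tested. At an unadjusted p below 0.05 there were 2992 of the tested probe sets and 1391 of the 9815 genes. All differences are of log2(signal + 6), Artemis-deficient minus RAG-2-deficient, with their standard error (SE), and this scale understates the change of dim probe sets. In bulk RNA, fewer cells of a type and less RNA per cell cannot be told apart.

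The size of this list depended on which arrays were fitted, for a reason that was not tested. The 5 groups of lines shared an estimate of the spread, and the 3 IkB-DN samples correlated with each other at 0.976 to 0.983, above any other group of lines. Their titles carry different numbers, but no source used here says whether they are separate lines. Without their arrays 38 genes were called in place of 105, of which 37 were among the 105, and with only the 6 arrays compared 48 were called. Of the 6 lines compared, leaving out RAG-2-deficient replicate 1 left the fewest genes called, 43, and leaving out Artemis-deficient replicate 2 left 67. A set of 20 genes was called in the main analysis and in all 16 alternatives, and the number of alternatives that called a gene is given below as a share of 16.

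**Figure D1:**
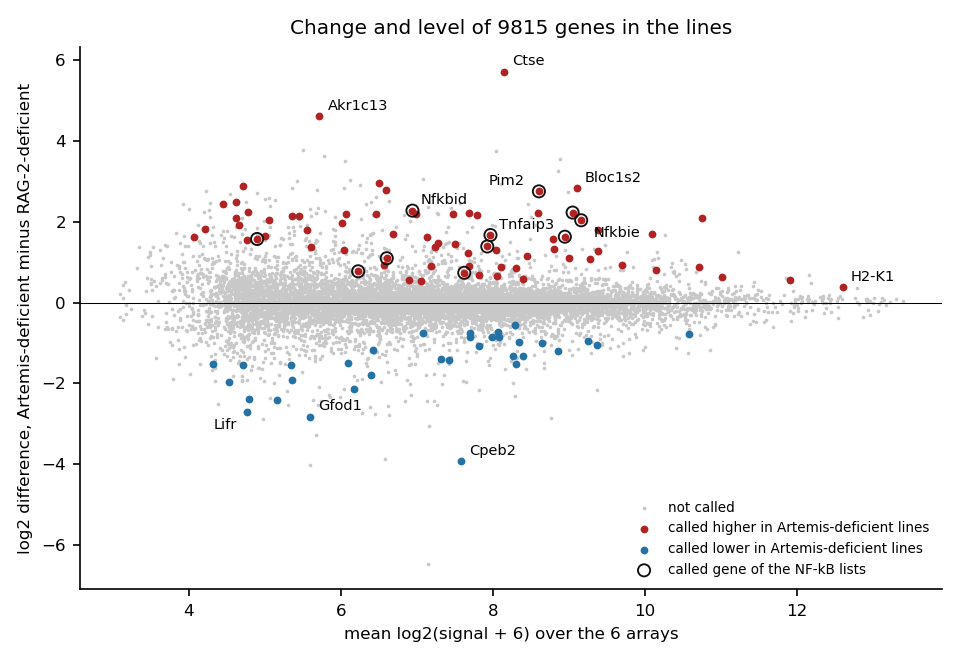
Each of the 9815 tested genes is a point, with its mean log2(signal + 6) over the 6 arrays on the x axis and its log2 difference, Artemis-deficient minus RAG-2-deficient lines, on the y axis. Red points are the 72 genes called higher, blue points the 33 called lower, and rings mark the 11 called genes of the NF-kB lists, all of which lie above 0.

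Among the gene lists, those of the NF-kB pathway had the most calls. The lists were chosen with earlier results of these data known, so their counts are descriptions and not independent support. Of 17 tested genes for NF-kB subunits, IkB inhibitors and their regulators, 5 rose and none fell (Nfkbid, Nfkbie, Tnfaip3, Relb and Nfkb2), 15 changes were positive and the median change was 0.37. Of 26 other tested targets of NF-kB 6 rose and none fell (Pim2, Il12a, Cd69, Map3k8, Swap70 and Icam1), 21 changes were positive and the median was 0.38. Over all tested genes 0.734% rose, 4855 of 9815 changes were positive and the median was -0.00. Without the IkB-DN arrays 4 of the first list and 2 of the second were called, and over the analyses that left out a line the counts were 3 to 5 and 2 to 4, with 3 and 3 without RAG-2-deficient replicate 1, and 2 on the second list without replicate 3 of either group.

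The promoters of 8 of these 11 genes were in a table of RefSeq promoters (mouse build GRCm38.p6, 250 bases before to 50 after a transcript start), and 4 of the 8 held a match to the kappa B consensus, the sequence that NF-kB dimers bind. The consensus was searched on both strands, and a match is a description of the letters, not a shown site of binding. It was found in 8.46% of all 32851 promoter windows in the table and, counting a gene with several windows once, in 12% of 8034 tested genes with a promoter there. It was found in 21.2% of 52 genes called higher, in 15.4% of 26 genes called lower and in 35.3% of 34 tested genes of the NF-kB lists. The windows below are those of the IkB and A20 genes called higher and the first window of Nfkb2, shown because these genes are both regulators and known targets of the pathway. Capitals mark the matches, and matches that overlap are joined.
Nfkbie, chr17:45555450-45555749, plus strand: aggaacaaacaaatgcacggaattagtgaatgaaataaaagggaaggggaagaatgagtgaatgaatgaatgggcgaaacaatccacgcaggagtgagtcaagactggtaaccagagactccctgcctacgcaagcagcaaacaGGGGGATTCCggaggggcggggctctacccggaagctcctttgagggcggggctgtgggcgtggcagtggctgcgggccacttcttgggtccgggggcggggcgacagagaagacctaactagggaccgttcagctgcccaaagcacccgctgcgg
Nfkbid, chr7:30422156-30422455, plus strand: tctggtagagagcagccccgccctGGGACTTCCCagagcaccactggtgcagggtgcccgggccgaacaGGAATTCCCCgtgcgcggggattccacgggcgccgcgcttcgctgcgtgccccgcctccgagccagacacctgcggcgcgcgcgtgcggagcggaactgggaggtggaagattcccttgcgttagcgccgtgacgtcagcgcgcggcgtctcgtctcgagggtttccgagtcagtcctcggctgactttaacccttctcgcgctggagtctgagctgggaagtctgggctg
Tnfaip3, chr10:19015361-19015660, minus strand: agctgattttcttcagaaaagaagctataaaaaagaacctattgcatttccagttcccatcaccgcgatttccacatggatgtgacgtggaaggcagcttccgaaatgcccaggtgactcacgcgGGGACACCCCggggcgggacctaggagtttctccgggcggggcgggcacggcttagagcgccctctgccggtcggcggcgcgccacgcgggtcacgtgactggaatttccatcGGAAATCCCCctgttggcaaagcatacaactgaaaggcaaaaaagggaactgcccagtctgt
Nfkb2, chr19:46304487-46304786, plus strand: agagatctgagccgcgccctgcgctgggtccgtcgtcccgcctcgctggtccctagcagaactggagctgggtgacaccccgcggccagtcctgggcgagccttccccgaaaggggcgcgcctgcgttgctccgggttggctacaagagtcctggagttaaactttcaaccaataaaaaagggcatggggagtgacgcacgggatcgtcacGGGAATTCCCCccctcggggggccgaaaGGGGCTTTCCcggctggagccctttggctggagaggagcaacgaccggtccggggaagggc
The match of Nfkbie begins 106 bases before the start, those of Nfkbid 226 and 181 bases, those of Tnfaip3 125 and 12 bases, and those of this Nfkb2 window 39 and 11 bases. All 3 windows of Nfkb2 in the table held a match, as did 1 of 3 for Nfkbid and 1 of 2 for Tnfaip3. No match lay in the windows of Pim2, Il12a, Swap70 and Icam1.

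Of the genes for inhibitors of the pathway, 3 were called under all 16 alternatives. Nfkbie encodes IkB epsilon, which retains NF-kB dimers in the cytoplasm; its signal was 1240, 999 and 1237 in Artemis-deficient lines, against 251, 320 and 262 in RAG-2-deficient lines. The groups were far apart relative to their own spread, and the difference was 2.04 ± 0.17 (SE, adjusted p = 1.13e-04, called in 16 of 16 alternatives). Nfkbid encodes an atypical nuclear IkB protein; its signal was 299, 201 and 308 in Artemis-deficient lines and 44.4, 53.2 and 52.0 in RAG-2-deficient lines. Replicate 2 was the lowest Artemis-deficient line for both genes and still lay above every RAG-2-deficient line, and Nfkbid rose by 2.28 ± 0.36 (adjusted p = 0.00960, 16 of 16). Tnfaip3 encodes A20, the ubiquitin-editing enzyme that ends NF-kB signalling, and gave 456, 408 and 460 in Artemis-deficient lines, against 141, 160 and 106 in RAG-2-deficient lines (1.67 ± 0.25, adjusted p = 0.00757, 16 of 16). Nfkbia, for the main inhibitor IkB alpha, is bright in these cells: 4772, 4106 and 4886 in Artemis-deficient lines and 2478, 2854 and 3734 in RAG-2-deficient lines. These groups did not overlap either, yet the difference of 0.62 ± 0.18 was not called (adjusted p = 0.145), and of its 4 other probe sets, at 0.43 to 0.85, the one at 0.68 was called (adjusted p = 0.0398).

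Of the subunit genes, Relb and Nfkb2 encode the partners of the noncanonical NF-kB dimer, RelB and p52. Relb gave 151, 121 and 139 in Artemis-deficient lines, against 54.1, 60.8 and 66.7 in RAG-2-deficient lines, a difference of 1.10 ± 0.18 (adjusted p = 0.0132, 15 of 16). Nfkb2 gave 106, 70.6 and 104 in Artemis-deficient lines, against 52.5, 51.5 and 49.6 in RAG-2-deficient lines. Both genes had separate groups, with replicate 2 lowest among the Artemis-deficient lines. The call of Nfkb2 on this probe set was marginal (0.78 ± 0.17, adjusted p = 0.0488, 5 of 16), whereas its other tested probe set differed by 3.17 ± 0.25 (adjusted p = 6.49e-05). Rela and Rel, for the subunits with transactivation domains that act in the canonical pathway, were chosen after their values were seen and were not called (0.24 ± 0.14, adjusted p = 0.494, for Rela and 0.15 ± 0.34, adjusted p = 0.895, for Rel).

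Among the other targets, 3 called genes encode signalling proteins. Pim2, a serine/threonine kinase that favours survival, gave 643, 1005 and 1568 in Artemis-deficient lines and 318, 97.5 and 94.0 in RAG-2-deficient lines. RAG-2-deficient replicate 1 was above the other RAG-2-deficient lines but below every Artemis-deficient line, and the difference of 2.76 ± 0.55 was called in 10 of 16 alternatives (adjusted p = 0.0371). Map3k8 (Tpl2), the kinase that links NF-kB signalling to ERK, was dim, at 44.7, 50.7 and 41.4 in Artemis-deficient lines and 4.97, 20.4 and 11.7 in RAG-2-deficient lines (1.58 ± 0.31, adjusted p = 0.0359, 8 of 16). Swap70, a protein that binds PIP3 and actin and acts in B cell migration, gave 345, 429 and 392 in Artemis-deficient lines, against 141, 168 and 126 in RAG-2-deficient lines. The Swap70 groups were tight and separate, and its rise of 1.39 ± 0.21 held in 16 of 16 alternatives (adjusted p = 0.00852).

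The other called targets are surface or secreted proteins. Il12a, which encodes the p35 subunit of interleukin 12, gave 1080, 1164 and 1175 in Artemis-deficient lines, against 234, 341 and 169 in RAG-2-deficient lines. It rose by 2.23 ± 0.33 in 16 of 16 alternatives (adjusted p = 0.00674) and had the narrowest range among the Artemis-deficient lines, relative to its level, of the 11 genes drawn in the plot of NF-kB signals. Cd69, an activation marker that holds lymphocytes in tissue by lowering the S1P receptor, gave 762, 668 and 1255 in Artemis-deficient lines and 172, 433 and 274 in RAG-2-deficient lines (1.63 ± 0.35, adjusted p = 0.0466, 8 of 16). Icam1, a ligand of the integrin LFA-1, gave 221, 250 and 277 in Artemis-deficient lines and 126, 159 and 156 in RAG-2-deficient lines. Its groups were separate but close, with a difference of 0.74 ± 0.14 (adjusted p = 0.0288, 9 of 16). Ltb, for the cytokine lymphotoxin beta, had the largest change on the list, for which it was chosen (463, 775 and 1205 in Artemis-deficient lines, against 235, 47.1 and 72.1 in RAG-2-deficient lines), but it missed the threshold (2.93 ± 0.72, adjusted p = 0.0812).

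**Figure D2:**
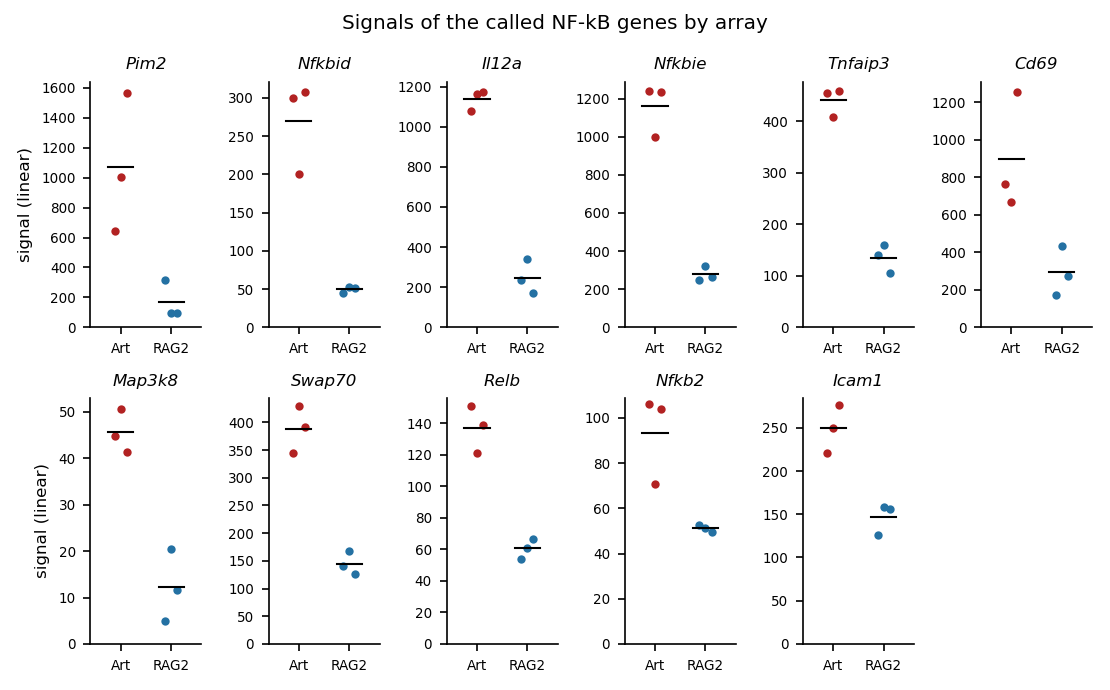
Linear signals of the 11 called genes of the NF-kB lists, 1 panel per gene, with a point per array, a bar at the mean of each group and axes that start at 0. Artemis-deficient lines (Art, red) stand left of RAG-2-deficient lines (RAG2, blue), and in each panel the lowest red point lies above the highest blue point.

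Against 0.734% of all tested genes, 4 of 20 rose in homing and adhesion and none fell (median 0.21). Besides Cd69, Swap70 and Icam1, which also stand on the NF-kB target list, this was Cxcr4, the receptor by which CXCL12 keeps B cell precursors in the marrow. Its signal was 2764, 2066 and 2070 in Artemis-deficient lines and 1083, 1239 and 1370 in RAG-2-deficient lines. Artemis-deficient replicate 1 stood above the other Artemis-deficient lines, and the call was held in only 4 of 16 alternatives (0.89 ± 0.19, adjusted p = 0.0486).

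Of 10 immediate early genes 2 rose, the AP-1 subunits Junb and Jund, with a list median of 0.32. Over all tested genes 0.734% rose. Junb gave 123, 151 and 104 in Artemis-deficient lines, against 52.1, 66.8 and 70.4 in RAG-2-deficient lines (0.93 ± 0.17, adjusted p = 0.0245, 10 of 16). Jund was much brighter on its probe set, at 2612, 2458 and 2642 in Artemis-deficient lines and 1390, 1598 and 1974 in RAG-2-deficient lines (0.65 ± 0.12, adjusted p = 0.0231, 8 of 16). Both had separate groups. In MAPK signalling Map3k8 was the only call of 18, and the list's median was -0.01.

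No p53 target was called by limma at an adjusted p below 0.05. An unadjusted p below 0.05 was found for 6 of 22, against 1391 of 9815 over all tested genes. The changes were nevertheless large and mostly positive, 18 of 22 with a median of 0.85, and they varied between lines of a group. Cdkn1a, for the cell cycle inhibitor p21, gave 1608, 1946 and 169 in Artemis-deficient lines and 46.2, 101 and 613 in RAG-2-deficient lines. Zmat3, for a p53-induced zinc finger protein, gave 2339, 2718 and 646 in Artemis-deficient lines and 99.2, 17.5 and 1052 in RAG-2-deficient lines. For both genes Artemis-deficient replicate 3 lay below RAG-2-deficient replicate 3, so the groups overlapped, and neither difference was called (2.44 ± 1.29, adjusted p = 0.445, for Cdkn1a and 3.55 ± 1.53, adjusted p = 0.329, for Zmat3). For Nfkbie, Nfkbid and Tnfaip3, Artemis-deficient replicate 3 was not the lowest of its group.

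Most changes of S, G2 and M phase genes were negative, with few calls. In S phase and replication 2 of 28 genes fell and none rose, 6 changes were positive and the median was -0.18. Over all tested genes 0.336% fell, 0.734% rose and 4855 of 9815 changes were positive. Mcm6, a subunit of the replicative helicase, gave 91.3, 92.9 and 90.8 in Artemis-deficient lines, against 247, 324 and 200 in RAG-2-deficient lines, and fell by 1.4 ± 0.28 (adjusted p = 0.0359, 10 of 16). Rfc3, a subunit of the clamp loader, gave 180, 136 and 136 in Artemis-deficient lines and 308, 401 and 260 in RAG-2-deficient lines, and fell by 1.06 ± 0.20 (adjusted p = 0.0286, 10 of 16). Neither overlapped between groups, and on its other tested probe set Mcm6 was not called (-1.41 ± 0.33, adjusted p = 0.0660). Of 27 G2 and M phase genes limma called 0, and 0 had an unadjusted p below 0.05, against 1391 of 9815 over all tested genes. Of their changes 26 were negative and the median was -0.44. Mki67, the proliferation antigen, shows the spread behind this: 309, 257 and 65.3 in Artemis-deficient lines and 345, 727 and 74.0 in RAG-2-deficient lines, with replicate 3 low in both groups (-0.60 ± 1.08, adjusted p = 0.860). Of 14 G1 regulators 1 rose, the cyclin gene Ccnd1, at 28.6, 32.6 and 26.0 in Artemis-deficient lines and 3.83, 3.07 and 4.75 in RAG-2-deficient lines (1.83 ± 0.26, adjusted p = 0.00503, 15 of 16). Ccnd1 was about as dim as the median probe set of an array in the Artemis-deficient lines and well below it in the RAG-2-deficient lines.

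**Figure D3:**
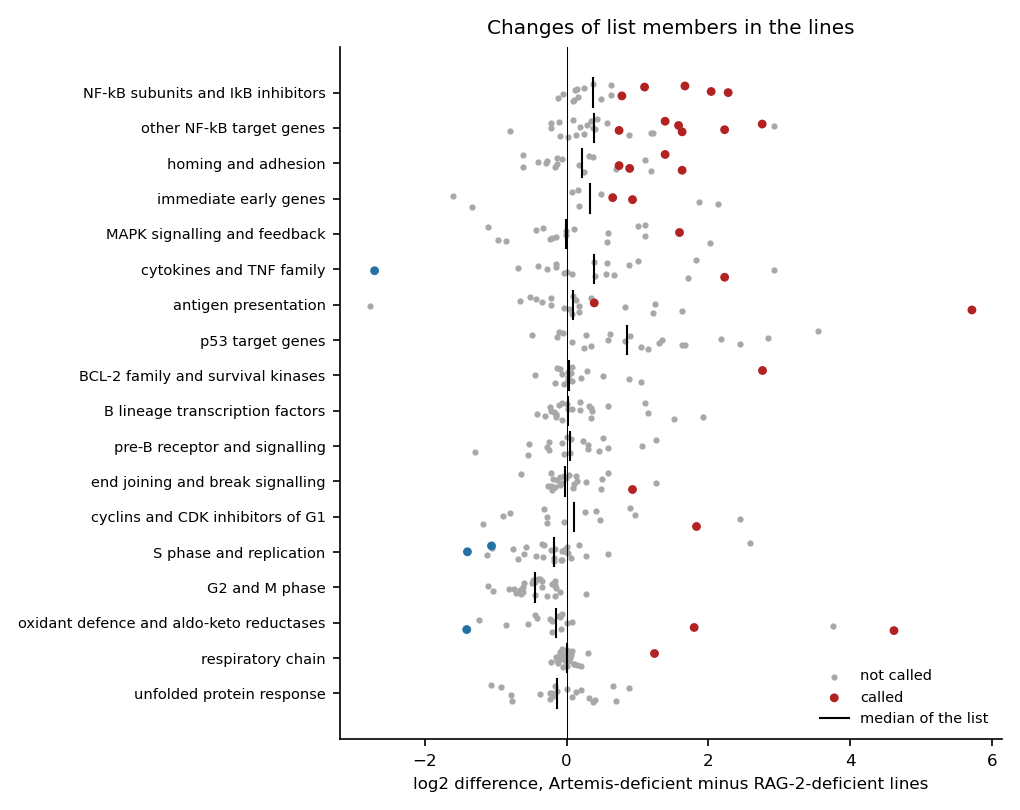
Log2 differences, Artemis-deficient minus RAG-2-deficient lines, of the tested members of 18 gene lists, a point per gene. Grey points were not called, red points were called higher, blue points called lower, and a vertical bar marks each list's median, which is 0.85 for p53 targets with no call and 0.37 for NF-kB subunits and inhibitors with 5 calls.

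Few genes that make, sense or join the breaks were called, and of all tested genes 1.07% were called in either direction. Of 24 genes of end joining and break signalling 1 rose, Atr, the kinase that responds to single-stranded DNA, at 296, 286 and 248 in Artemis-deficient lines and 118, 167 and 147 in RAG-2-deficient lines. Its groups were separate, but it was called in only 4 of 16 alternatives (0.92 ± 0.20, adjusted p = 0.0488), and its other probe sets were not called (0.76 ± 0.38 and 0.64 ± 0.16). Atm was not called on its brightest probe set, at 167, 122 and 173 in Artemis-deficient lines and 161, 190 and 183 in RAG-2-deficient lines (-0.21 ± 0.15, adjusted p = 0.579), and its other tested probe set fell by 0.87 ± 0.14 (adjusted p = 0.0103). Rag1 gave 2787, 1970 and 2825 in Artemis-deficient lines and 1407, 2625 and 2578 in RAG-2-deficient lines (0.23 ± 0.37, adjusted p = 0.840). limma called 0 of 12 genes of homologous recombination, 0 of 25 B lineage transcription factors and 0 of 19 pre-B receptor and signalling genes (1, 5 and 3 genes before adjustment at 0.05). Their medians were 0.03, 0.02 and 0.05. Over all tested genes 1391 of 9815 passed 0.05 before adjustment.

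Antigen presentation had 2 called rises among 21 genes (median 0.09), and over all tested genes 0.734% rose. H2-Ab1 had the largest fall on the list, for which it was chosen, and missed the threshold (-2.77 ± 0.57, adjusted p = 0.0534). H2-K1, a class I heavy chain, changed by the smallest amount of any called gene yet with almost no spread: 7073, 7108 and 7120 in Artemis-deficient lines, against 5278, 5455 and 5489 in RAG-2-deficient lines (0.39 ± 0.06, adjusted p = 0.00852, 14 of 16). Class I genes resemble each other, so its probe set may also read its relatives, and 1 of its 3 other probe sets was called (0.44 ± 0.09, adjusted p = 0.0393). Ctse, for the protease cathepsin E, had the largest called change of any gene, at 2111, 2175 and 1863 in Artemis-deficient lines and 69.2, 13.6 and 33.9 in RAG-2-deficient lines (5.72 ± 1.22, adjusted p = 0.0486, 6 of 16). In the wild type lines, which enter the shared estimate of the spread, it varied from 18.1 to 2577. Its other tested probe set was lower in Artemis-deficient lines and not called (-1.51 ± 0.60, adjusted p = 0.290).

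Called members of the remaining lists were few, and of all tested genes 1.07% were called in either direction. Cyba, the p22phox subunit of the NADPH oxidase, gave 1149, 1033 and 1582 in Artemis-deficient lines, against 359, 325 and 366 in RAG-2-deficient lines, and rose in 16 of 16 alternatives (1.80 ± 0.21, adjusted p = 0.00195). Its partner in that oxidase, Cybb, was at 922, 660 and 1478 in Artemis-deficient lines and 70.6, 111 and 35.5 in RAG-2-deficient lines. Chosen after its values were seen, Cybb had separate groups and missed the threshold (3.76 ± 0.84, adjusted p = 0.0569). Sdhaf1, an assembly factor of respiratory complex II, gave 290, 280 and 355 in Artemis-deficient lines and 125, 141 and 118 in RAG-2-deficient lines (1.23 ± 0.13, adjusted p = 9.09e-04, 16 of 16). It was the only call among 27 respiratory chain genes, of which the others changed by no more than 0.30 in either direction. The complement regulator Cd55 gave 195, 253 and 283 in Artemis-deficient lines and 82.3, 72.9 and 66.2 in RAG-2-deficient lines, with its other 2 tested probe sets called as well (1.63 ± 0.30, adjusted p = 0.0257, 10 of 16). The receptor gene Notch1 gave 373, 420 and 425 in Artemis-deficient lines and 187, 157 and 142 in RAG-2-deficient lines (1.30 ± 0.26, adjusted p = 0.0359, 9 of 16). limma called 0 of 21 genes of the unfolded protein response, 0 of 15 of glycolysis, 0 of 17 of cholesterol synthesis and 0 of 7 plasma cell markers, with 7, 1, 1 and 1 of them at an unadjusted p below 0.05. The plasma cell markers had a median change of -1.07, and 1 of the 7 changes was positive. limma also called 0 of 13 tested genes near Rag2 and 0 of 7 near the Artemis gene, with 4 and 2 at an unadjusted p below 0.05. Over all tested genes 1391 of 9815 had an unadjusted p below 0.05. Of 15 interferon response genes the only call was Xaf1, which has no settled direction: it fell by 2.13 ± 0.44 on its brightest probe set (adjusted p = 0.0405) and rose by 2.69 ± 0.36 on another (adjusted p = 0.00355).

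Other large rises were in genes outside the NF-kB lists. Akr1c13, an aldo-keto reductase that acts on steroids and other carbonyls, gave 192, 227 and 378 in Artemis-deficient lines, against 14, 0.960 and 2.48 in RAG-2-deficient lines, where it lay far below the median signal of an array. It rose by 4.62 ± 0.35 (adjusted p = 5.28e-05, 16 of 16), and since the reductases of its family are alike its probe set may also read its relatives. Bloc1s2, a subunit of the complexes that sort cargo to lysosome-related organelles and position lysosomes, gave 1513, 1529 and 1349 in Artemis-deficient lines, against 164, 166 and 288 in RAG-2-deficient lines (2.84 ± 0.25, adjusted p = 1.47e-04, 16 of 16). Both genes were high in every Artemis-deficient line and low in every RAG-2-deficient line. Pik3ap1, the adaptor BCAP that couples the B cell receptor to PI3 kinase, gave 1054, 642 and 828 in Artemis-deficient lines, against 223, 147 and 158 in RAG-2-deficient lines (2.21 ± 0.32, adjusted p = 0.00588, 16 of 16), but its other tested probe set was not called (0.25 ± 0.33, adjusted p = 0.791). Slc20a1, a sodium-dependent phosphate transporter that also serves as a retrovirus receptor, gave 345, 562 and 509 in Artemis-deficient lines, against 106, 105 and 85.2 in RAG-2-deficient lines (2.17 ± 0.21, adjusted p = 3.89e-04, 16 of 16).

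The other genes among the 20 largest rises changed by 2.15 to 2.97. Separate groups were a condition for a place among these 20. Txndc15, a thioredoxin domain protein, gave 256, 152 and 388 in Artemis-deficient lines and 5.82, 31.2 and 71.5 in RAG-2-deficient lines (2.97 ± 0.56, 10 of 16). The zinc finger gene Zfp982 (2.88 ± 0.43, 16 of 16), Snrnp25 of the minor spliceosome (2.22 ± 0.37, 12 of 16), the arylamine acetyltransferase Nat2 (2.19 ± 0.39, 10 of 16), the tRNA deaminase subunit Adat2 (2.19 ± 0.46, 8 of 16), the sarcoglycan Sgcb (2.19 ± 0.47, 6 of 16) and Prelid2 (2.18 ± 0.37, 11 of 16) had separate groups as well. So had 3830406C13Rik (2.79 ± 0.57, 9 of 16). Trim7 (2.49 ± 0.52, 8 of 16) reached the median signal of an array in no group but the Artemis-deficient lines, so it was tested only through the group where it is high and had to differ. A further 3 were fitted with an empty value dropped: Fv1, a restriction factor against murine leukaemia viruses (69.3 and 42.1 in 2 Artemis-deficient lines, against 2.54, 6.12 and 7.4 in RAG-2-deficient lines; 2.43 ± 0.31, 12 of 16), Abca8b (2.25 ± 0.47, with 2 RAG-2-deficient lines, 5 of 16) and Tcaim (2.15 ± 0.41, with 2 RAG-2-deficient lines, 7 of 16).

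The largest falls were of dim or variable probe sets. Cpeb2, a protein that binds polyadenylation elements in mRNA, gave 29.5, 52.8 and 50.8 in Artemis-deficient lines, against 1239, 304 and 1049 in RAG-2-deficient lines, and fell by 3.92 ± 0.72 (adjusted p = 0.0254, 10 of 16). Gfod1 gave 17.8, 8.83 and 11.1 in Artemis-deficient lines, against 110, 123 and 136 in RAG-2-deficient lines (-2.82 ± 0.44, adjusted p = 0.00924, 16 of 16), with a smaller change on its other tested probe set (-0.62 ± 0.30, adjusted p = 0.396). Lifr, the receptor of leukaemia inhibitory factor, gave 1.98, 1.29 and 14.6 in Artemis-deficient lines, against 83.4, 67.8 and 45.3 in RAG-2-deficient lines (-2.71 ± 0.39, adjusted p = 0.00612, 15 of 16). Its signals in the Artemis-deficient lines all lay below the array medians. Msh5, a meiotic MutS protein, fell by 2.41 ± 0.40 (adjusted p = 0.0134, 13 of 16) and was at -0.17 ± 0.45 on its other tested probe set.

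The falls described next were smaller. Acadl, the long-chain acyl-CoA dehydrogenase of fatty acid oxidation, gave 218, 194 and 160 in Artemis-deficient lines and 502, 454 and 478 in RAG-2-deficient lines (-1.31 ± 0.18, adjusted p = 0.00503, 16 of 16). Lancl1, a glutathione-binding protein, gave 176, 202 and 168 in Artemis-deficient lines and 504, 532 and 552 in RAG-2-deficient lines (-1.52 ± 0.19, adjusted p = 0.00280, 16 of 16). These 2 genes are next to each other among tested genes on chromosome 1 (assembly GRCm38.p6). Cited2, a regulator of CBP and p300, gave 241, 186 and 195 in Artemis-deficient lines and 767, 402 and 474 in RAG-2-deficient lines (-1.33 ± 0.25, adjusted p = 0.0274, 10 of 16). Entpd1, the ectonucleotidase CD39, fell by 1.49 ± 0.29 (9 of 16), and 1 of its 2 other probe sets was called lower too. Akr7a5, an aldehyde reductase, fell by 1.41 ± 0.27 (10 of 16), the chaperone Erp29 by 1.19 ± 0.26 (5 of 16) and the small GTPase Arf5 by 1.18 ± 0.22 (10 of 16). The rest of the 20 largest falls were 2610507I01Rik (-2.39 ± 0.48), the bicarbonate transporter Slc4a8 (-1.97 ± 0.37), Pyurf (-1.92 ± 0.37), 4933404O12Rik (-1.79 ± 0.25), 4930594M22Rik (-1.54 ± 0.30), the RNA-binding protein Pcbp4 (-1.53 ± 0.27) and 6530402F18Rik (-1.51 ± 0.32). The last reached the median signal of an array only in RAG-2-deficient lines, so it too was tested only through the group where it is high. Trim7 and 6530402F18Rik were the only 2 of the 105 called genes of this kind.

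Some called genes lay close together on the genome. Ordered by position among tested genes, 37 of the 105 (35.2%) had another called gene within 10 tested genes, and the same held for 17.1% of all 9777 tested genes with a position. Some neighbours moved in opposite directions: Mcm6, which fell, lies next to Cxcr4, which rose, and Cxcr4 next to Cd55. The stretch of chromosome 17 from Vps52 to H2-M3, picked out after its values were seen, holds the class I and class II region and had 6 called genes of 87 tested (6.90%): Vps52 at 0.90 ± 0.17, H2-K1 at 0.39 ± 0.06, Vars at 1.15 ± 0.16, Msh5 at -2.41 ± 0.40, Clic1 at 0.80 ± 0.15 and H2-M3 at -1.04 ± 0.21. No test was made of these positions, and no source used here says whether the lines share a strain of origin.

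The other groups of lines show where the called genes lie between the Artemis-deficient lines and cells with repairable breaks, without ATM or with NF-kB blocked. These comparisons share the Artemis-deficient arrays with the main comparison, so the values of each gene are given side by side and no overlap is drawn. Of all probe sets, 2.07% were called between Artemis-deficient and IkB-DN lines, 0.286% between Artemis-deficient lines and those that also lack ATM, and 0.505% between Artemis-deficient and wild type lines. Nfkbie gave 1240, 999 and 1237 in Artemis-deficient lines, 260, 223 and 245 in IkB-DN lines, 241 and 271 in lines without ATM, 719, 495 and 444 in wild type lines and 251, 320 and 262 in RAG-2-deficient lines. It was higher in Artemis-deficient lines than in IkB-DN lines by 2.22 ± 0.17 (adjusted p = 1.14e-04), than in lines without ATM by 2.15 ± 0.19 (adjusted p = 3.43e-04) and than in wild type lines by 1.08 ± 0.17 (adjusted p = 0.0198). Wild type lines lay between, and the lines without ATM or with IkB-DN lay at the level of the RAG-2-deficient lines.

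Other members of the pathway followed in part. In Artemis-deficient lines Relb exceeded its level in IkB-DN lines by 2.55 ± 0.18 (adjusted p = 1.14e-04) and its level in lines without ATM by 2.04 ± 0.20 (adjusted p = 8.03e-04), which is more than its difference from RAG-2-deficient lines. It lay at 16.4, 18.6 and 19.9 in IkB-DN lines and 37.2 and 21.4 in lines without ATM, below the RAG-2-deficient lines. Pim2 (3.42 ± 0.55 and 3.97 ± 0.62) and Swap70 (1.33 ± 0.21 and 1.43 ± 0.24) were called higher in Artemis-deficient lines than in either of these groups, as were Cyba (1.49 ± 0.21 and 1.90 ± 0.24), Slc20a1 (1.67 ± 0.21 and 1.5 ± 0.23) and Sdhaf1 (1.15 ± 0.13 and 1.26 ± 0.15), all given as the difference from IkB-DN lines and then from lines without ATM. Nfkbid was called against IkB-DN lines (2.32 ± 0.36, adjusted p = 0.00862) and missed the threshold against lines without ATM (2.15 ± 0.40, adjusted p = 0.0503). Il12a was called against IkB-DN lines (1.76 ± 0.33, adjusted p = 0.0212) and not against lines without ATM (1.39 ± 0.37, adjusted p = 0.192). Likewise, Cd69 was called against IkB-DN lines (1.97 ± 0.35, adjusted p = 0.0158) and not against lines without ATM (1.99 ± 0.39, adjusted p = 0.0614). For Nfkbid, Il12a and Cd69 the differences from both groups lay close together relative to their SE. The calls therefore show no difference between IkB-DN lines and lines without ATM, which was not tested.

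Not every NF-kB target differed from the IkB-DN lines. Icam1 gave 221, 250 and 277 in Artemis-deficient lines and 251, 258 and 271 in IkB-DN lines (-0.06 ± 0.14, adjusted p = 0.851). Map3k8 gave 44.7, 50.7 and 41.4 in Artemis-deficient lines and 49.0, 41.2 and 38.2 in IkB-DN lines (0.08 ± 0.31, adjusted p = 0.921). Tnfaip3 lay between, at 325, 278 and 244 in IkB-DN lines, and was not called against them (0.64 ± 0.25, adjusted p = 0.196).

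For several of the largest rises it was the RAG-2-deficient lines that stood alone. Akr1c13 gave 192 to 378 in Artemis-deficient lines, 212, 227 and 249 in IkB-DN lines, 181 and 188 in lines without ATM, 177, 150 and 252 in wild type lines and 0.960 to 14 in RAG-2-deficient lines. Bloc1s2 gave 1349 to 1529 in Artemis-deficient lines, 1037 to 1255 in IkB-DN lines, 1519 and 1176 in lines without ATM and 648 to 1292 in wild type lines, against 164 to 288 in RAG-2-deficient lines. The differences of the Artemis-deficient lines from these 3 groups lay between 0.13 and 0.63 for both genes, and none was called (adjusted p between 0.328 and 0.941). Txndc15 (-0.66 to 0.21) and Pik3ap1 (0.18 to 0.44) behaved in the same way. So did Ccnd1, a smaller and dimmer rise, at 21.3, 18.9 and 26.8 in IkB-DN lines and 44.9 and 36.8 in lines without ATM. In wild type lines Ccnd1 gave 43.1, 22.9 and 49.3. The Artemis-deficient lines differed from these groups by 0.31 ± 0.26, -0.42 ± 0.29 and -0.29 ± 0.26 for Ccnd1, and none of these differences was called. Among the falls, Tmem87a, chosen after its values were seen, gave 205, 196 and 185 in Artemis-deficient lines, 182 to 231 in the other 3 groups and 344 to 372 in RAG-2-deficient lines (-0.86 ± 0.11 against RAG-2-deficient lines, adjusted p = 0.00264, 16 of 16).

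**Figure D4:**
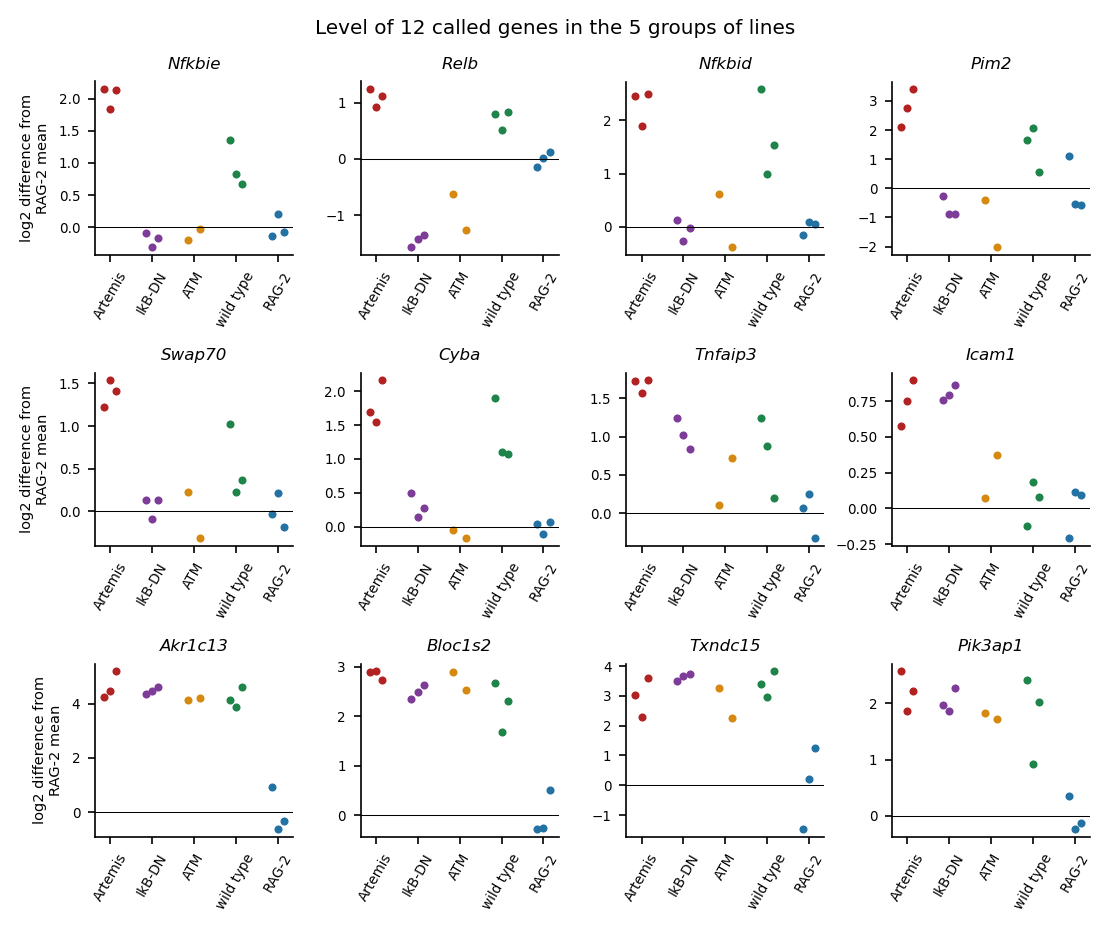
Level of 12 called genes in the 5 groups of lines, as log2(signal + 6) minus the mean of the RAG-2-deficient lines, with a point per sample. Nfkbie, Relb, Nfkbid, Pim2, Swap70 and Cyba are high in Artemis-deficient lines and low in IkB-DN lines and in lines without ATM, whereas Akr1c13, Bloc1s2, Txndc15 and Pik3ap1 are low only in the RAG-2-deficient lines.

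Bone marrow pre-B cells give the same question in cells that were never cultured and on arrays not used above, with RAG-1 in place of RAG-2 deficiency. Of 9920 genes tested there 1.92% were called higher and 0.827% lower in Artemis-deficient cells. Of the 72 genes called higher in the lines 65 were tested in the marrow, where 43 changes were positive (66.2%, against 53.5% of the same sign over all 8858 genes tested in both) and 7 were called higher (10.8%). Of the 33 called lower 29 were tested, 16 changes were negative (55.2%), none was called lower and 1 was called higher. With limma at 2 residual degrees of freedom these calls are fragile. Without RAG-1-deficient replicate 1 no probe set was called, and 1767 had an unadjusted p below 0.05; the 522 probe sets called with all 4 samples became 80 without RAG-1-deficient replicate 2 and 74 without the intensity trend. Under these settings 0, 1 and 0 of the 8 genes called in both sets were still called, and all 8 changes kept their sign. Without either Artemis-deficient sample 7 of the 8 were tested, and all 7 kept their sign and were called.

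The 7 genes called higher in both sets were Nfkbie, Tnfaip3, Nfkbid, Icam1, Map3k8, Ccnd1 and Il6st, of which 5 stand on the NF-kB lists, as do 11 of all 72 genes called higher in the lines. Of the lists themselves, 3 of 16 tested subunit and inhibitor genes and 5 of 26 other targets were called higher in the marrow, and none lower. Nfkbie gave 1339 and 1092 in Artemis-deficient marrow cells, against 285 and 508 in RAG-1-deficient ones (1.64 ± 0.27, adjusted p = 0.0327). Tnfaip3 gave 699 and 690 in Artemis-deficient marrow cells, against 264 and 332 in RAG-1-deficient ones (1.20 ± 0.19, adjusted p = 0.0280). Both also had separate groups in the lines. Nfkbid gave 415 and 378, against 189 and 194 in RAG-1-deficient cells (1.01 ± 0.18, adjusted p = 0.0389), and Icam1 gave 312 and 337, against 123 and 151 (1.18 ± 0.21, adjusted p = 0.0347). Map3k8 differed by 1.58 ± 0.31 (adjusted p = 0.0467), but it reached the median signal of an array only in the Artemis-deficient cells and so was tested only through the group where it is high. Ccnd1, dim in the lines, was bright in the marrow, at 1458 and 2806 in Artemis-deficient cells and 393 and 596 in RAG-1-deficient cells (2.04 ± 0.32, adjusted p = 0.0292). Il6st encodes gp130, the signalling chain that the LIF receptor pairs with; it was at 26.2, 31.9 and 15.0 in Artemis-deficient lines and 7.22, 1.89 and 2.53 in RAG-2-deficient lines (1.61 ± 0.32, adjusted p = 0.0346, 10 of 16), and in the marrow it was called on another probe set (1.29 ± 0.19, adjusted p = 0.0251). On the probe set called in the lines, Il6st overlapped between marrow groups and was not called (0.45 ± 0.44, adjusted p = 0.657).

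Other genes of the lines did not pass the test in the marrow. Relb gave 108 and 112 in Artemis-deficient marrow cells and 51.0 and 76.3 in RAG-1-deficient ones (0.71 ± 0.28, adjusted p = 0.25). Pim2 (1.24 ± 0.30, adjusted p = 0.0842), Swap70 (0.74 ± 0.18, adjusted p = 0.0803), Cyba (0.91 ± 0.19, adjusted p = 0.0568) and Bloc1s2 (0.72 ± 0.17, adjusted p = 0.0739) were positive with separate groups and missed the threshold. Cxcr4 missed it in the opposite direction to the lines, at 2342 and 2137 in Artemis-deficient and 3479 and 3400 in RAG-1-deficient marrow cells (-0.62 ± 0.15, adjusted p = 0.0847). Il12a overlapped, at 1158 and 491 in Artemis-deficient and 515 and 542 in RAG-1-deficient cells (0.51 ± 0.35, adjusted p = 0.534). Ctse, the largest rise in the lines, was at -0.40 ± 0.18 in the marrow (adjusted p = 0.321).

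**Figure D5:**
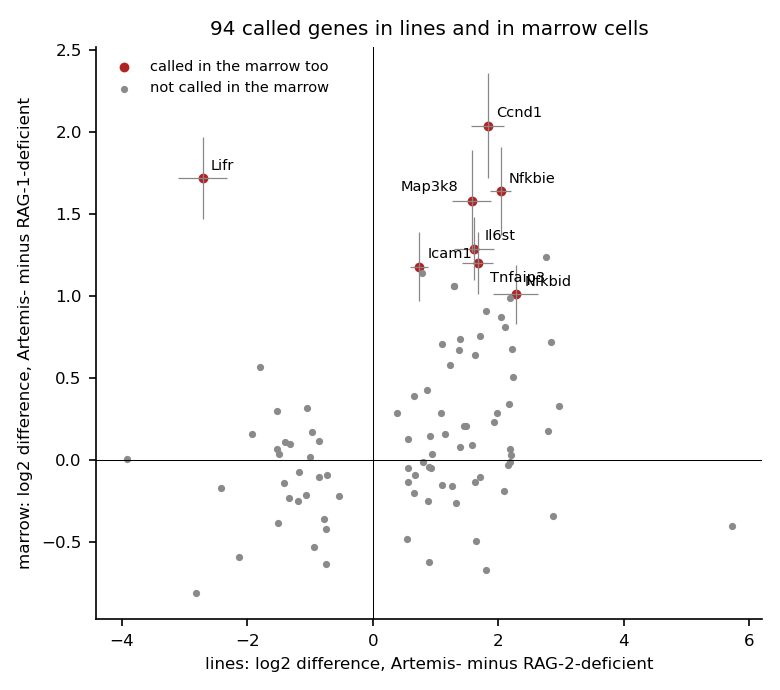
The 94 genes called in the lines and tested in the marrow, with the log2 difference in the lines (Artemis-deficient minus RAG-2-deficient) on the x axis and in marrow cells (Artemis-deficient minus RAG-1-deficient) on the y axis. Red points with SE bars are the 8 genes called in both sets, of which 7 lie at the upper right and Lifr, at -2.71 in the lines and 1.72 in the marrow, at the upper left.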

How the data were processed

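Total RNA of mouse pre-B cells was measured on Affymetrix Mouse 430 v2 arrays, read with GeneChip Operating Software 1.2.0.037, per the labels. The authors deposited log10 signals, a base read off the size of the values because the labels do not state it; the sources used here give no summary method, background subtraction or scaling. Of 44200 probe sets 34294 name 1 gene and 916 several; 34099 symbols were updated through Entrez IDs (RefSeq, GRCm38.p6). Empty cells (14.7%) were left empty. Precision is limited by the number of arrays. The p-values rest on the spread between samples within groups, pooled over all groups of a fit. In the lines this pool includes the IkB-DN samples.

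Values were returned to signals, raised by the 25th percentile of the set (6 in the lines, 11 in the marrow) and taken to log2, a step planned for linear signals. Probe sets that reached their array's median in at least 2 samples were fitted with limma 3.58.1 in R 4.3.3 (eBayes with an intensity trend) over all 5 line groups (9 residual and 3.09 prior degrees of freedom) and separately over the marrow (2 and 5.49), with two-sided p-values adjusted by Benjamini-Hochberg over all probe sets of a comparison. Probe sets with fewer than 2 values in either group of a comparison were dropped from it. Where leaving out a sample left a lone sample in a group, a single value in each group was enough. The fit was tested on simulated data. The 16 alternatives for the lines change the pseudocount, filter, scaling, empty cells, trend, array weights or the arrays fitted, or leave out a line.

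A gene is represented by its probe set of highest mean level. Named are the 20 largest rises and falls with separate groups, the called members of each list, the targeted genes and the genes called in lines and marrow, with up to 2 members of a list without calls; other genes named were chosen after their values were seen. The members, the lists and the tests were chosen with earlier results of these data known. Figures used matplotlib 3.10.9 in Python 3.11.15.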

Additional observations from a re-analysis of the deposited data

Results flagged for a closer look

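Lifr, the receptor of leukaemia inhibitory factor, changed in opposite directions in the 2 settings that compare Artemis deficiency with a lack of RAG breaks. It was lower in the Artemis-deficient than in the RAG-2-deficient lines by a log2 difference of -2.71 and higher in Artemis-deficient than in RAG-1-deficient marrow cells by 1.72, called in each. Every Artemis-deficient line lay below every RAG-2-deficient line, and both Artemis-deficient marrow samples (709 and 908) lay above both RAG-1-deficient ones (190 and 294). The difference between the settings was not tested.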

How the results depend on the processing

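For Artemis-deficient minus RAG-2-deficient lines, 249 probe sets and 105 genes were called. Without the IkB-DN arrays these counts were 84 and 38, and with only the 6 arrays compared 104 and 48; both fits have fewer samples behind the spread. Leaving out a line gave 97 to 205 probe sets and 43 to 88 genes, lowest without RAG-2-deficient replicate 1 and, for probe sets, 148 without RAG-2-deficient replicate 3 and 154 without Artemis-deficient replicate 2. The other settings gave 220 to 349 probe sets, the most when wild type replicate 3, whose title holds the letters ATM, was left out, an alternative added after seeing the data. For Artemis-deficient minus RAG-1-deficient marrow, 522 calls became 74 without the intensity trend, and 0 to 1247 when a sample was left out, where the lone remaining sample is assumed to vary like the other group. The cause of these changes was not tested. The 60 called genes named kept their direction in every alternative fit that gave a value; by another probe set, Ctse (-1.51, adjusted p = 0.290) and Xaf1 (2.69, adjusted p = 0.00355) were reversed. No paired analysis was possible because the labels give the lines of different groups no shared replicate number. Signals near the bottom of an array, as for Akr1c13 or Lifr in the low group, limit how well the size of a change is known.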

Other observations

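Other genes called higher stood outside the lists and were chosen after their values were seen. Shisa5, a p53-inducible protein of the endoplasmic reticulum, gave 2921, 3064 and 5050 in Artemis-deficient lines, against 1136, 756 and 658 in RAG-2-deficient lines (2.10 ± 0.30, adjusted p = 0.00612, called in 16 of 16 alternatives), and it was higher in Artemis-deficient lines than in lines without ATM by 2.55 ± 0.34 (adjusted p = 0.00734). Unlike Cdkn1a and Zmat3, it was highest in Artemis-deficient replicate 3. Wasf2, an activator of actin branching, gave 1226, 1002 and 1235 in Artemis-deficient lines, against 610, 615 and 558 in RAG-2-deficient lines (0.95 ± 0.10, adjusted p = 9.09e-04, 16 of 16). For Wasf2 only the RAG-2-deficient lines stood apart. The Artemis-deficient lines were not called against wild type lines (-0.07 ± 0.10), lines without ATM (0.12 ± 0.11) or IkB-DN lines (-0.37 ± 0.10). In the marrow Wasf2 differed by 0.04 ± 0.16. Cd52, a lymphocyte surface peptide, gave 1506, 1675 and 2981 in Artemis-deficient lines, against 426, 781 and 635 in RAG-2-deficient lines (1.71 ± 0.29, adjusted p = 0.0145, 13 of 16), and was also called higher in Artemis-deficient than in wild type lines (1.73 ± 0.29, adjusted p = 0.0230) and IkB-DN lines (1.75 ± 0.29, adjusted p = 0.0116). Limd2 gave 4537, 4650 and 4805 in Artemis-deficient lines, against 2912, 3257 and 3325 in RAG-2-deficient lines (0.56 ± 0.09, adjusted p = 0.0137, 13 of 16), and differed most from the lines without ATM (1.23 ± 0.10, adjusted p = 2.53e-04).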
